A study of Homo sapiens with 13 samples.

Results

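NT5E and 6 other genes that make, sense or remove extracellular adenosine were followed across control lung carcinoma cells and 3 bone-metastatic lines. The genes were NT5E, ENTPD1, ADORA1, ADORA2A, ADORA2B, ADA and DPP4, and all probe sets that the platform annotation assigns to any of them were taken. The 7 genes, of 13119 named on the array, had 13 of its 22277 probe sets. The genes were selected on their known roles and on earlier results from these arrays. Which values were used is not recorded, so every comparison is treated as used, the values of the 13 probe sets are given as a description. No p-value is given for a member, and counts of members past a threshold stand only beside the same share of all probe sets, with nothing read from them. The signals are log2 values made by the authors with RMA, a method that summarises the probes of a set into 1 signal and scales the arrays to one another.

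The 13 Affymetrix arrays measured RNA of human cultured cells of non-small cell lung carcinoma. The controls were 2 arrays of cells without a luciferase reporter and 2 of cells carrying one. The metastatic lines M1, M4 and M5 had 3 arrays each. All these lines descend from control cells that were put into the heart of mice, grew in bone, were recovered from there and were tested for metastasis by a second injection. Each array held RNA pooled from 3 groups of the same cells. Arrays of a group carry the label of biological replicates. An SD measures the spread between such pools within a group, and the SD of all 4 control arrays also spans both kinds of control. The SE of a difference comes from a limma fit. It rests on 1 spread per probe set, shared by the 5 groups and drawn toward the spread of all probe sets. Each line is a single derivation, and neither value measures the spread between derivations.

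The Affymetrix control probe sets, 45 of the 62 of which report added spike-in transcripts, divided the arrays into 4 sets. The labels record no batch, so these are called array sets. Set 1 held both first control arrays and M1 replicate 2, and set 2 held both second control arrays with replicate 1 of each metastatic line. Set 3 was made up of M1 replicate 3 and M4 replicates 2 and 3, and set 4 of M5 replicates 2 and 3 alone. Of the 13 arrays, 13 were closest over all probe sets to an array of their own set, and Pearson's r between any pair of arrays was 0.975 to 0.998. Differences are therefore given without a block, with the array sets as a block, and within array sets. Under the block, the M5 value comes from its replicate 1 only, since set 4 holds no other group.

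Of 7 epithelial markers, 5 lay above the median of the array on all 13 arrays (KRT7, KRT8, KRT18, KRT19 and MUC1), while EPCAM and CDH1 were under the lower quartile on all 13. All 8 measured lymphocyte and myeloid markers and all 5 endothelial markers lay below the array median on all 13 arrays. Of 7 fibroblast and stromal markers, COL1A1 and COL3A1 lay above it on all 13, THY1 on 3, and COL1A2, DCN, LUM and PDGFRB on 0.

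ATP that leaves a cell is stripped to AMP by the ectonucleotidase ENTPD1 (CD39), and NT5E (CD73), an enzyme anchored in the outer face of the plasma membrane, turns AMP into adenosine. Adenosine acts on G protein-coupled receptors, of which ADORA1 lowers cyclic AMP and ADORA2A and ADORA2B raise it. ADA deaminates adenosine to inosine, and on human cells DPP4 (CD26), a serine peptidase, can hold ADA at the surface. In tumours the pathway is best known for adenosine that restrains immune cells, and NT5E is also a surface marker of mesenchymal stromal cells.

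NT5E had a lower signal on every metastatic array than on every control array. Its only probe set, 203939_at, lay above the array median on all 13 arrays. The control arrays read 9.22 and 9.45 without luciferase and 9.20 and 9.31 with it. M1 read 9.05, 9.00 and 8.64 on replicates 1 to 3. The 3 replicates of M4 read 8.63, 8.08 and 7.64, and those of M5 read 8.99, 8.30 and 8.29. The highest metastatic array, M1 replicate 1, thus lay below the lowest control array, control with luciferase replicate 1, and the lowest signals were those of M4 replicates 2 and 3. The full range over the arrays was 1.81 log2 units, wider than in 98.7% of the tested probe sets.

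In the order of group means, the controls were highest at 9.30 ± 0.12 (log2, SD, n = 4), then M1 at 8.90 ± 0.22 (SD, n = 3), M5 at 8.53 ± 0.40 (SD, n = 3) and M4 at 8.12 ± 0.49 (SD, n = 3). Both kinds of control overlapped, at 9.33 ± 0.17 (SD, n = 2) without luciferase and 9.26 ± 0.08 (SD, n = 2) with it. The arrays of M1 overlapped those of M5, and the arrays of M5 overlapped those of M4. M1 and M4 were apart by the smallest of gaps, with 8.64 on the lowest M1 array and 8.63 on the highest M4 array. Against control, NT5E was 2.26-fold lower in M4 (log2 difference -1.18 ± 0.22, SE), 1.70-fold lower in M5 (-0.77 ± 0.22) and 1.32-fold lower in M1 (-0.40 ± 0.22). For the mean of the 3 lines the difference was -0.78 ± 0.18 (SE).

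**Figure D1:**
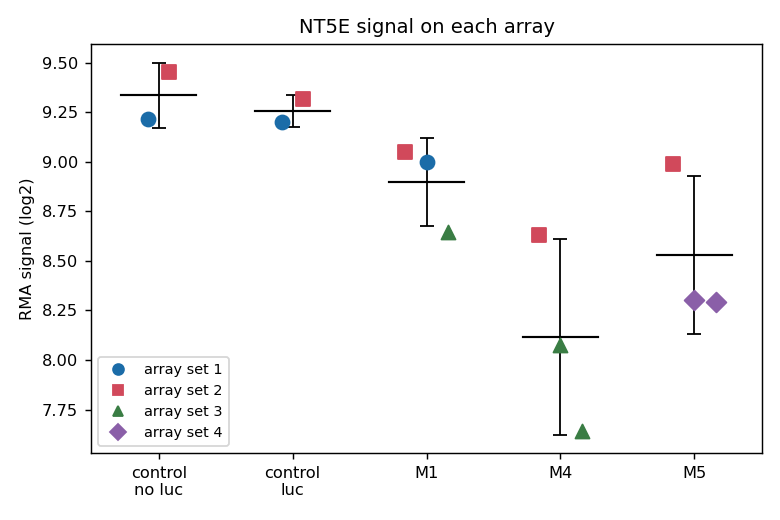
RMA signal (log2, vertical axis) of NT5E on each of the 13 arrays, by group, with symbols for the array sets, horizontal lines for group means and bars for 1 SD. All 9 metastatic arrays lie at 9.05 or below and all 4 control arrays at 9.20 or above. Within every group, both kinds of control included, the array of set 2 is the highest.

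The size of the NT5E difference moved with the array set. Within set 2, where 1 array of every group is found, the log2 difference from control was -0.75 for M4, -0.39 for M5 and -0.33 for M1. Within set 1, M1 differed from control by -0.21. M4 minus M1 was -0.78 within set 3 and -0.42 within set 2. With the sets as a block the differences were -0.85 ± 0.14 (SE) for M4, -0.39 ± 0.17 for M5 and -0.22 ± 0.12 for M1. So M4 was the lowest line in set 2 as well, whereas M5 minus M1 was -0.06 there and -0.37 ± 0.24 (SE) over all arrays. Set 3, with M1 replicate 3 and M4 replicates 2 and 3, held no control array. Neither did set 4, with M5 replicates 2 and 3. These arrays were the lowest of their lines and could not be set against a control array of their own set. The part of the array set in their lower signal was not tested.

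Under a limma fit of all 22215 probe sets that are not Affymetrix controls, with Benjamini-Hochberg adjustment over all of them, 0 of the 13 probe sets passed an adjusted p of 0.05 in any of the 8 comparisons, with or without the block. The share of all probe sets that passed was 1.40% for M5 against control, 1.25% for M5 against M4, 0.617% for M5 against M1, 0.0630% for the mean of the lines, 0.0135% for M1 against control and for M4 against M1, 0.00900% for M4 against control and 0% for the luciferase comparison. With the block it was 1.54% for M5 against control, 1.59% for M5 against M4, 1.37% for M5 against M1, 0.428% for the mean of the lines, 0.239% for M1, 0.108% for M4, 0.0855% for M4 against M1 and 0.0180% for luciferase. At an unadjusted p under 0.05 the counts were 3 of 13 for the mean of the lines (7.47% of all probe sets), 0 for M1 (2.79%), 3 for M4 (6.27%) and 2 for M5 (16.4%) against control. They were 2 for M4 against M1 (2.80%), 3 for M5 against M1 (13.4%), 2 for M5 against M4 (13.3%) and 0 for luciferase (1.26%). With the block these counts were 4 (9.11%), 1 (9.04%), 2 (6.55%), 4 (14.1%), 2 (4.71%), 3 (14.5%), 1 (13.5%) and 1 (5.63%) in the same order.

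The counts at the adjusted threshold moved when single arrays were left out, and again they are no test, since the genes were selected on these arrays. Without M5 replicate 1, which leaves only M5 arrays of set 4, 1 of the 13 was past it for the mean of the lines (NT5E at -0.86, beside 1.82% of all probe sets) and for M4 (NT5E at -1.18, 0.0990%). For M5 against control 3 were past it (NT5E at -1.0, ADA 204639_at at 0.41 and DPP4 203716_s_at at 0.56), beside 22.3% of all probe sets. For M5 against M1 there were 2 (ADA 204639_at at 0.37 and DPP4 203716_s_at at 0.65, beside 16.9%), and for M5 against M4 1 (DPP4 203716_s_at at 0.64, beside 16.4%). Without M4 replicate 1 there was 1 for M4 (NT5E at -1.43, beside 0.0540%), and without dim probe sets 1 for M5 (ADA 204639_at at 0.38, beside 2.98%).

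ADORA2B, the receptor that needs the most adenosine to respond, was the other probe set with a wide range, 1.54 log2 units, wider than 97.2% of the tested probe sets. Controls without luciferase read 4.57 and 5.17, and controls with it 5.07 and 5.76. M1 read 5.55, 5.34 and 5.49, M4 read 6.12, 5.46 and 5.68, and M5 read 5.56, 5.69 and 5.34. M4 replicate 1 was the highest array and control without luciferase replicate 1 the lowest, and control with luciferase replicate 2 lay above 8 of the 9 metastatic arrays, so the lines and control overlapped. The signal stood above the array median on 4 of the 13 arrays. Its mean was 5.44, with 47.0% of probe sets lower, close to the 5.43 of ADORA1 216220_s_at. Differences are compressed at signals below the median, for ADORA2B as for the dim members.

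Group means of ADORA2B went from 5.14 ± 0.49 (SD, n = 4) in control to 5.46 ± 0.11 in M1, 5.53 ± 0.18 in M5 and 5.75 ± 0.34 in M4 (SD, n = 3 each), and neighbours in this order overlapped. M4 was 1.52-fold higher than control (log2 difference 0.61 ± 0.20, SE), M1 was at 0.32 ± 0.20 and M5 at 0.39 ± 0.20. With the array sets as a block the values were 0.60 ± 0.16 in M4, 0.36 ± 0.13 in M1 and 0.15 ± 0.19 in M5. Within set 2 they were 0.65 in M4, 0.08 in M1 and 0.10 in M5, and within set 1 the value in M1 was 0.52. The controls with luciferase exceeded those without by 0.54 ± 0.26 (SE), with a 95% interval from -0.03 to 1.11, and by 0.49 in set 1 and 0.59 in set 2. That gap between the kinds of control was about as large as the difference of M4 from their mean.

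The stretches before the transcription start of NT5E and ADORA2B are shown because these were the members with the widest range over the arrays, one lower and the other higher in M4 than in control. Both come from RefSeq on build GRCh38.p14, plus strand, and hold the 250 bases before the start, chr6:85449833-85450082 for NT5E and chr17:15944880-15945129 for ADORA2B. Of the 7 genes, 6 had such a window. Capitals mark matches, on either strand, to TGACG (the half-site of the cAMP response element), GGGCGG (the GC box bound by SP1) and ACGTG or GCGTG (cores of the hypoxia response element).
NT5E: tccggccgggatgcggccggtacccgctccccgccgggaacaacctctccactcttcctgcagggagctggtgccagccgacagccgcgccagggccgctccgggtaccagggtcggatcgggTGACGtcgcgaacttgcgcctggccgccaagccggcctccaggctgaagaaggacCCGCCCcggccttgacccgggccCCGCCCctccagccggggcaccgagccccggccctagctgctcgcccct
ADORA2B: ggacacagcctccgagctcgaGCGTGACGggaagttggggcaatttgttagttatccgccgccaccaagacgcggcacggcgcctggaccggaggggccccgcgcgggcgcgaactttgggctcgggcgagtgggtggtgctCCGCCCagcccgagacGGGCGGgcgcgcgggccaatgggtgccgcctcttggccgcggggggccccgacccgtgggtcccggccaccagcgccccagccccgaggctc
The NT5E window held TGACG 1 time and GGGCGG 2 times, with 0 matches to ACGTG or GCGTG. The ADORA2B window held TGACG 1 time and GGGCGG 2 times, and a GCGTG that shares bases with the TGACG. The full cAMP response element TGACGTCA, which contains TGACG, was in neither. Of the 35116 windows of the same length in the table, 21.2% held TGACG, 42.6% GGGCGG, 32.2% GCGTG, 18.5% ACGTG and 1.65% TGACGTCA. A match gives letters only and says nothing of binding in these cells.

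ADA was the other member with probe sets above the array median on all 13 arrays. Probe set 204639_at read 7.32 and 7.43 in controls without luciferase and 7.65 and 7.49 in those with it. In M1 it read 7.42, 7.53 and 7.60, in M4 7.66, 7.77 and 7.76, and in M5 7.81, 7.94 and 7.82. All arrays of M5 lay above all arrays of M4, M1 and control, and all arrays of M4 above those of M1 and control, the smallest gap being 7.66 against 7.65. Both controls with luciferase also lay above both without it, by 0.20 ± 0.12 (SE). 

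By this probe set M5 was 1.30-fold higher than control (log2 difference 0.38 ± 0.09, SE), M4 was 1.19-fold higher (0.26 ± 0.09) and M1 was at 0.04 ± 0.09. With the block the values were 0.36 ± 0.12, 0.20 ± 0.10 and 0.01 ± 0.08, and within set 2 they were 0.35 in M5, 0.20 in M4 and -0.04 in M1. The second probe set of ADA, 216705_s_at, gave a different picture for M4. It read 6.84 and 6.94 in controls without luciferase, 6.71 and 7.0 in those with it, and 6.74, 6.73 and 6.55 in M1. In M4 it read 6.89, 6.69 and 6.46 and in M5 7.04, 7.08 and 7.11, so that M5 was again above all other arrays while M4 overlapped control. Its differences from control were 0.20 ± 0.12 (SE) in M5, -0.19 ± 0.12 in M4 and -0.20 ± 0.12 in M1. Both probe sets thus placed ADA highest in M5, and they were opposite in sign for M4. Within set 2 the M5 value of 216705_s_at was 0.07.

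**Figure D2:**
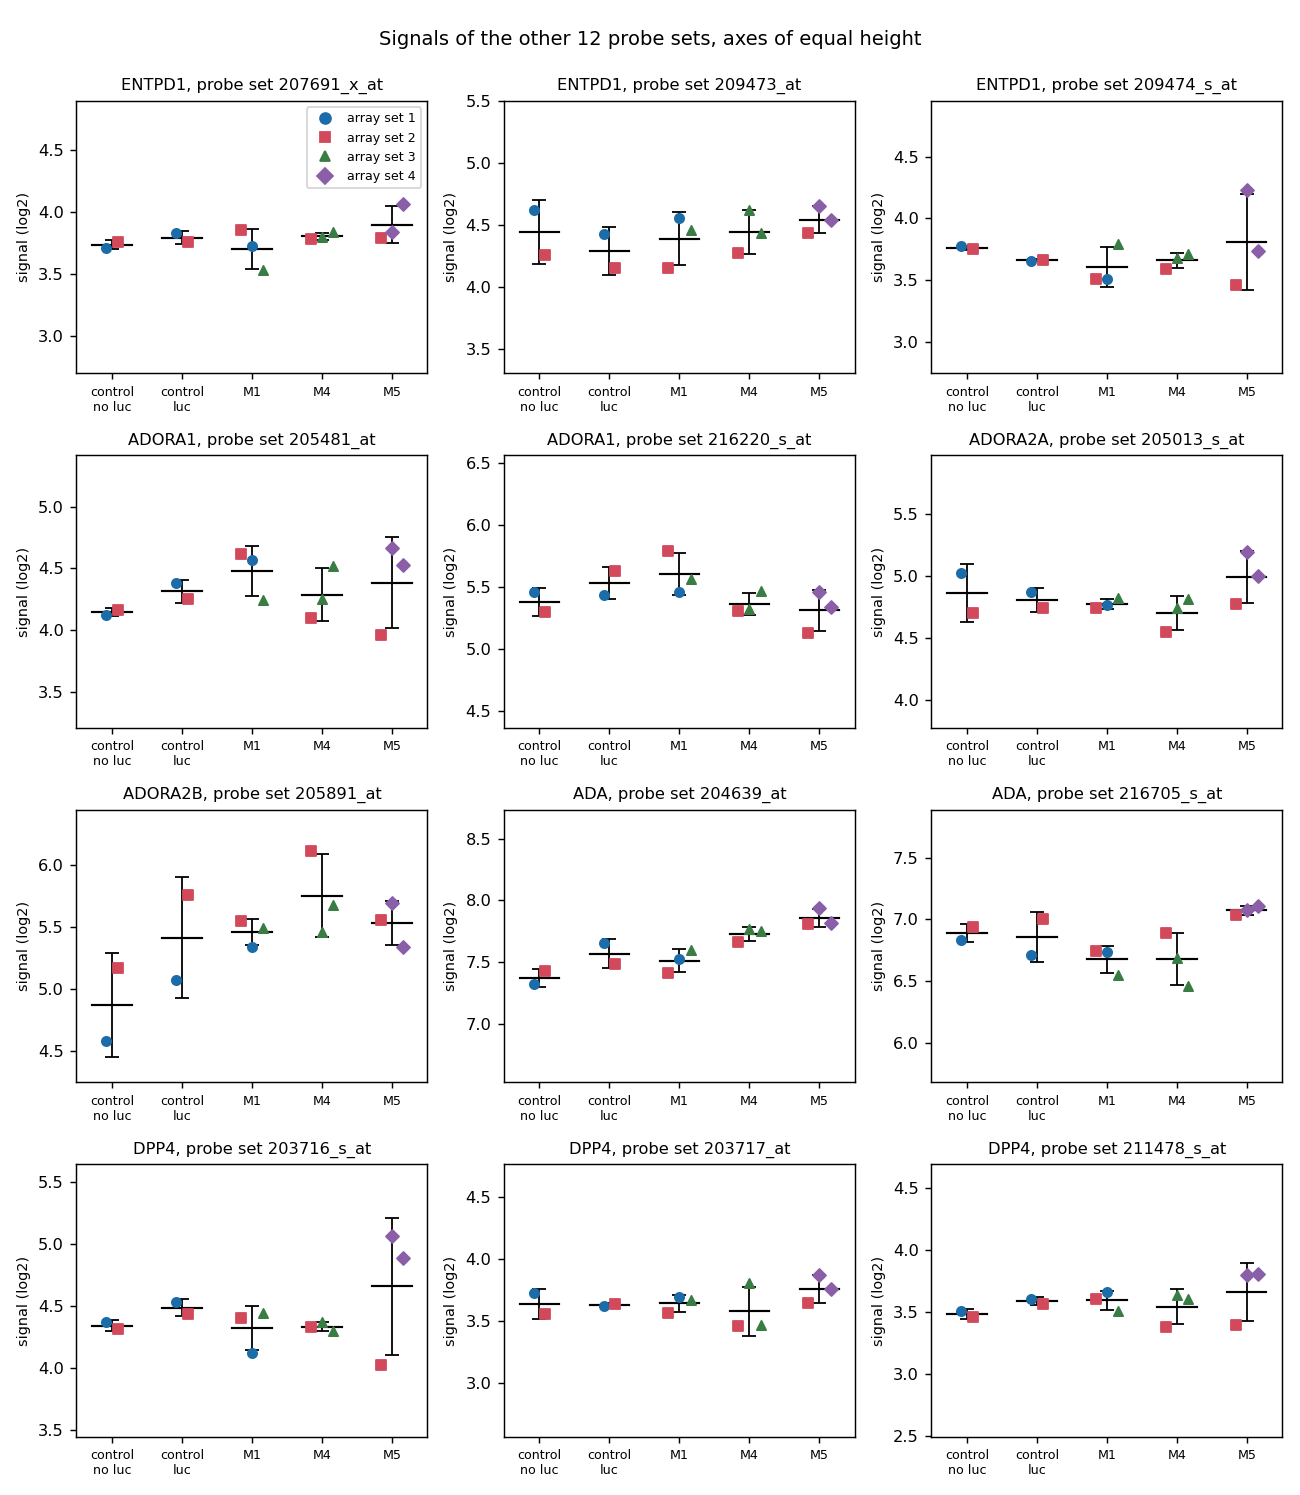
RMA signals (log2, vertical axes of equal height) of the 12 probe sets other than that of NT5E on each array, by group, with symbols for array sets, lines for group means and bars for 1 SD. ADORA2B spans 1.54 log2 units, ADA is highest in M5 by both probe sets, and DPP4 203716_s_at is high only on the M5 arrays of set 4.

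ENTPD1, the enzyme one step before NT5E, was dim by all 3 of its probe sets. Probe sets 207691_x_at and 209474_s_at were under the array's lower quartile on all 13 arrays, between 3.53 and 4.07 and between 3.47 and 4.23. Probe set 209473_at lay between 4.15 and 4.65 and was below the array median on all 13. Differences of M1, M4 and M5 from control lay between -0.11 and 0.18 over the 3 probe sets, with SEs of 0.10 to 0.15, and the arrays of each line overlapped those of control. RMA gives no detection call, and at such signals a fold understates any change of the transcript, so a difference in ENTPD1 was not detectable here rather than shown to be absent.

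ADORA1 and ADORA2A were also dim. ADORA1 read between 3.97 and 4.66 on 205481_at and between 5.13 and 5.79 on 216220_s_at, above the array median on 1 of 13 arrays by the second and on 0 by the first. M1 was highest by both, at 0.25 ± 0.16 (SE) and 0.15 ± 0.12 against control, with overlapping arrays. M5 was at 0.15 ± 0.16 by the first and -0.15 ± 0.12 by the second. ADORA2A shares its only probe set, 205013_s_at, with the readthrough transcript SPECC1L-ADORA2A, so its values cannot be assigned to the receptor alone. That probe set read between 4.55 and 5.20, below the array median on all 13 arrays, with differences from control of 0.16 ± 0.12 (SE) for M5, -0.06 ± 0.12 for M1 and -0.13 ± 0.12 for M4.

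DPP4, the anchor of ADA, had 2 probe sets below the lower quartile on all 13 arrays, 203717_at between 3.46 and 3.87 and 211478_s_at between 3.38 and 3.80. The third, 203716_s_at, read 4.37 and 4.31 in controls without luciferase, 4.54 and 4.44 in those with it, 4.41, 4.12 and 4.45 in M1 and 4.33, 4.37 and 4.30 in M4. M5 read 4.03, 5.06 and 4.89, so that its replicate 1 was the lowest of all arrays and its replicates 2 and 3 the highest. The difference of M5 from control was 0.24 ± 0.20 (SE) over all arrays, -0.42 with the block and -0.35 within set 2. Without M5 replicate 1 it was 0.56. The sign of DPP4 in M5 thus differed between replicate 1, in set 2, and replicates 2 and 3, in set 4. Set 2 held no other M5 array, so the array set and replicate 1 itself cannot be told apart. The lower quartile of all probe sets was 4.36 and 4.40 on the arrays of set 4 and between 4.16 and 4.28 on the others, and its part in this difference was not tested. The mean of the 8 lymphocyte and myeloid markers, cells in which ENTPD1, ADA and DPP4 are well known, ranged from 4.11 to 4.50 in M5 and from 4.07 to 4.23 in the other groups.

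**Figure D3:**
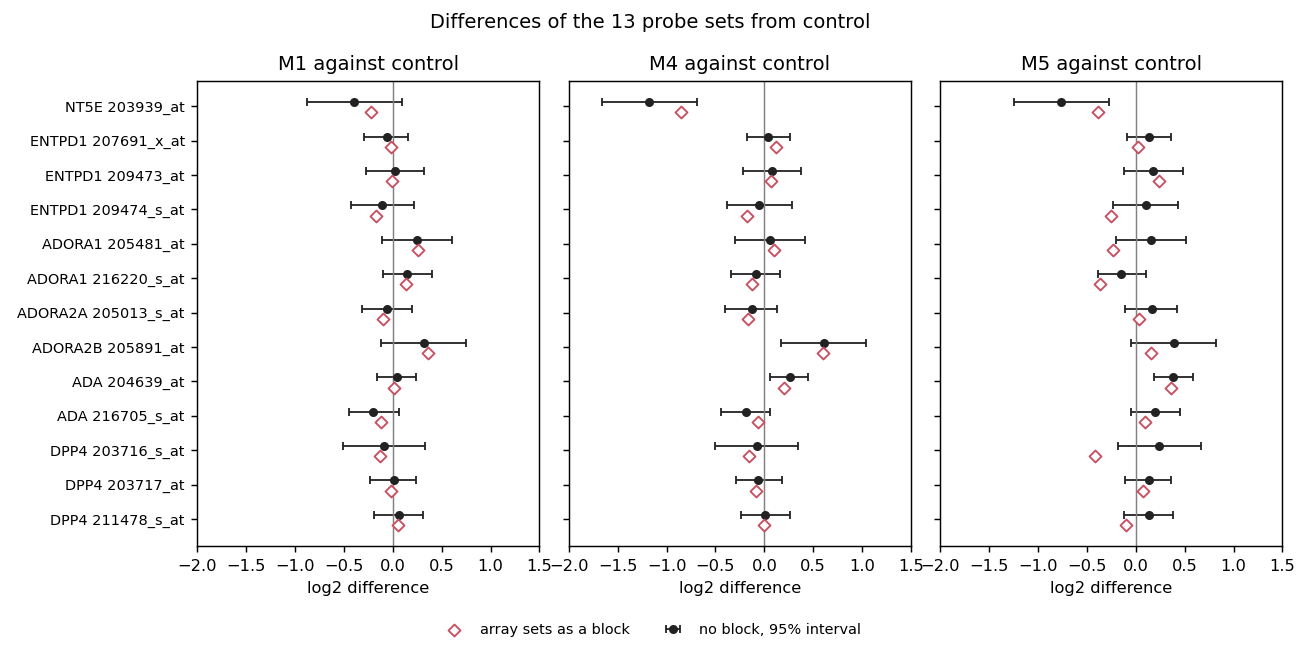
Log2 differences from control (horizontal axis) of the 13 probe sets in M1, M4 and M5, as filled points with 95% intervals from the fit without a block and open diamonds from the fit with array sets as a block. The intervals describe the fit and are no test, since the genes were selected on these arrays. NT5E is furthest from 0 in M4 at -1.18, and in M5 the diamonds of 4 dim probe sets (ENTPD1 209474_s_at, ADORA1 205481_at, DPP4 203716_s_at and 211478_s_at) lie across 0 from their points.

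The 13 probe sets were divided in direction in M1 and M4, and in M5 most were higher without the block only. Against control, 6 were lower and 7 higher in M1, 7 lower and 6 higher in M4, and 2 lower and 11 higher in M5. With the array sets as a block, 8 were lower and 5 higher in both M1 and M4, and 6 lower and 7 higher in M5. Their median difference was 0.154 for M5, 0.007 for M1 and -0.050 for M4, beside medians over all probe sets of 0.0276, -0.0075 and -0.0053. With the block the members' median in M5 was 0.022. These 3 comparisons share their control arrays. Arrays without overlap, all lower in the line, were found for 1 of the 13 probe sets, NT5E, in the 9 metastatic arrays together against control (0.288% of all probe sets), in M1 (3.45%), M4 (5.07%) and M5 (5.82%) against control and in M4 against M1 (4.26%), and for 0 in M5 against M1 (5.47%) or M4 (7.63%). All higher without overlap were 0 in the 9 metastatic arrays (0.252%) and in M1 (2.31%) against control, 1 in M4 against control (5.34%) and against M1 (4.30%), and 2 in M5 against control (5.59%), M1 (7.02%) and M4 (7.15%). The probe sets that stood higher were those of ADA, 204639_at in all 5 of these comparisons and 216705_s_at in the 3 of M5. Between the kinds of control, with 2 arrays each, 4 of the 13 were higher in cells with luciferase without overlap (14.6% of all probe sets), ADORA1 205481_at, ADA 204639_at, DPP4 203716_s_at and DPP4 211478_s_at. ENTPD1 209474_s_at was lower without overlap (1 of 13, beside 13.2%).

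On chromosome 6, NT5E had a larger difference from control in M4 than the nearest measured genes. The gap itself was not tested, and any unmeasured gene between them was not covered. In the order of RefSeq on GRCh38.p14, 6 measured genes on each side were taken, after the values of NT5E had been seen. Differences in M4 against control lay between -0.31 and 0.11 for these 12 genes, beside -1.18 for NT5E. The nearest measured gene before NT5E, CEP162, had a mean signal of only 4.35 and was at -0.04 ± 0.11 (SE) in M4. The nearest measured gene after NT5E was SYNCRIP, an RNA-binding protein with a mean signal of 9.47. SYNCRIP was at -0.56 ± 0.21 (SE) in M5, -0.31 ± 0.21 in M4 and -0.23 ± 0.21 in M1. With the block the 12 neighbours lay between -0.38 and 0.24 in M4 and NT5E at -0.85. The lowest of them was then CYB5R4, a reductase with a mean signal of 7.21, at -0.38 in place of -0.14, and SYNCRIP was at 0.06. Of the 12 neighbours 8 had a mean signal below the median of all probe sets, where differences are compressed.

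**Figure D4:**
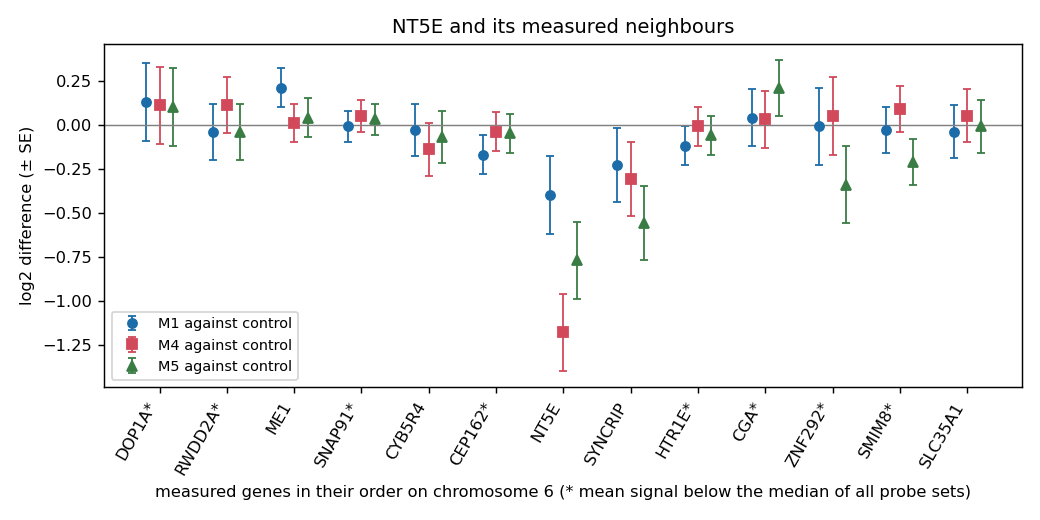
Log2 differences from control (vertical axis, bars for 1 SE) in M1, M4 and M5 for NT5E and the 6 measured genes on either side of it, in their order on chromosome 6. NT5E lies at -1.18 in M4 and -0.77 in M5, and the neighbour furthest below 0 is SYNCRIP at -0.56 in M5.

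The genes whose signals ran most like that of NT5E over the 13 arrays were sought among 9886 probe sets that name 1 gene and lie above the median signal. By Pearson's r they were MCL1 (r = 0.943), an anti-apoptotic BCL2 relative, CLTA (0.911), a clathrin light chain, PDSS1 (0.902), an enzyme of coenzyme Q synthesis, TRIP10 (0.901), an adaptor of CDC42, and OLA1 (0.901), an ATPase. Over deviations from the array set means, r with NT5E was 0.880 for MCL1, 0.668 for CLTA, 0.614 for PDSS1, 0.790 for TRIP10 and 0.816 for OLA1. The most opposite were NDE1 (r = -0.926), a dynein regulator, EIF2AK1 (-0.902), the haem-regulated eIF2alpha kinase, and KIF3C (-0.895), a kinesin. Against control MCL1 was at -0.47 in M4, -0.23 in M5 and -0.12 in M1, the same order of lines as NT5E with smaller sizes. These genes were picked for their likeness out of 9886 probe sets, the arrays share their array sets and lines, and no p is given.

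The other genes of the pathway, 112 in 6 lists, were examined next, and 93 of them were measured by 161 probe sets that name no other gene. The lists were chosen with earlier results of these data known, so their counts and p-values are no independent test. By limma with Benjamini-Hochberg adjustment over all 22215 probe sets, 1 of the 161 rose in M5 against control, 1 rose and 1 fell in M5 against M4, and 0 passed in the other 6 comparisons. Of all probe sets, 1.40% passed for M5 against control, 1.25% for M5 against M4 and 0% to 0.617% in the other 6. The counts among the 161 were thus not above the share of all probe sets. At an unadjusted p under 0.05 there were 28 for M5 against control, which is 17.4% of the 161 beside 16.4% of all probe sets, 23 for M5 against M4 (14.3% beside 13.3%) and 18 for M5 against M1 (11.2% beside 13.4%). There were 11 for the mean of the lines (6.83% beside 7.47%), 10 for M4 (6.21% beside 6.27%), 2 for M1 (1.24% beside 2.79%), 3 for M4 against M1 (1.86% beside 2.80%) and 0 for luciferase (beside 1.26%). These shares, from the fit without a block, were near those of all probe sets. With the block the share for M4 against control was 11.2% beside 6.55% of all probe sets. It was 11.2% beside 9.11% for the mean of the lines, 10.6% beside 9.04% for M1 and 16.8% beside 14.1% for M5. It was 5.59% beside 4.71% for M4 against M1, 13.0% beside 14.5% for M5 against M1 and 13.7% beside 13.5% for M5 against M4. For luciferase it was 2.48% beside 5.63%. These gaps were not tested. Without the block, the median over the 161 was 0.027 for M5, -0.003 for M1 and -0.000 for M4 against control, beside 0.0276, -0.0075 and -0.0053 over all probe sets. Without M5 replicate 1 the number that passed was 37 for M5 against control (23.0% of the 161, beside 22.3% of all probe sets), 26 for M5 against M1 (16.1% beside 16.9%) and 24 for M5 against M4 (14.9% beside 16.4%).

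All 3 calls lay in the list of intracellular adenosine and purine salvage (19 of 25 genes measured, 31 probe sets). AK4, a mitochondrial adenylate kinase, read 8.49, 8.33 and 8.29 in M4 and 7.92, 7.52 and 7.52 in M5, beside 7.97 and 8.31 in controls without luciferase and 7.96 and 8.23 in those with it. It was 1.65-fold lower in M5 than in M4 (log2 difference -0.72 ± 0.14, SE; limma adjusted p = 0.0297), with no overlap of the arrays. Within set 2 it was at -0.57 and with the block at -0.58 (limma adjusted p = 0.0733). Its other probe set, 204347_at, was at -0.45 ± 0.19 (limma adjusted p = 0.339).

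AK1, the cytosolic adenylate kinase that interconverts ATP, ADP and AMP, read 9.39, 9.57 and 9.52 in M5 and 9.06, 9.01 and 9.02 in M4, with 9.14 and 9.24 in controls without luciferase and 9.05 and 9.13 in those with it. M5 exceeded M4 1.38-fold (0.46 ± 0.09, SE; limma adjusted p = 0.0336), by 0.33 in set 2 and by 0.31 with the block (limma adjusted p = 0.268). A second AK1 probe set, 202588_at, was at 0.17 over all arrays and at -0.33 with the block, and it passed in neither fit. AHCYL2, a relative of the enzyme that splits S-adenosylhomocysteine, had group means of 4.93 ± 0.15 (SD, n = 4) in control and 5.47 ± 0.15 (SD, n = 3) in M5, and rose 1.45-fold (0.53 ± 0.12, SE; limma adjusted p = 0.0449), with signals below the array median on every array. With the block it was at 0.33 (limma adjusted p = 0.278), and its other probe set was at 0.07 in the fit without it.

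With the array sets as a block, 3 of the 161 passed for M5 against M4 (beside 1.59% of all probe sets). There were 2 for M5 against M1 (1.37%) and 1 for M5 against control (1.54%). PDE4D, a phosphodiesterase that breaks down cyclic AMP, passed on 2 probe sets in this fit. On 210836_x_at M5 exceeded M4 by 1.07 log2 units (limma adjusted p = 0.0342) and M1 by 1.09 (limma adjusted p = 0.0314), and on 210837_s_at M5 exceeded them by 1.07 and 1.01 (limma adjusted p = 0.027 and 0.0314). The other PDE4D probe sets did not pass with the block: for M5 against M4, 204491_at was at 0.40 (limma adjusted p = 0.259) and 211840_s_at at 0.66 (limma adjusted p = 0.102). These values rest on M5 replicate 1, which read 7.64 on 210836_x_at, whereas M5 replicates 2 and 3 read 6.68 and 7.07 and M4 read 6.65, 6.97 and 6.95. Without the block M5 against M4 was at 0.27 ± 0.24 and 0.06 ± 0.27 (SE) on the same probe sets. GNAI2, a subunit of the inhibitory G protein, was lower in M5 than in M4 by -0.72 with the block (limma adjusted p = 0.0385) and by -0.36 without it. M5 replicate 1 read 7.69 there and the other arrays read between 8.12 and 8.44. MTAP, which salvages adenine from methylthioadenosine, passed with the block in M5 against control on 1 of its probe sets (0.68, limma adjusted p = 0.0447; mean signal in control 4.37), with M5 replicate 1 at 5.14 and replicates 2 and 3 at 4.13 and 4.08. Its other 4 probe sets lay between -0.08 and 0.33 in that fit and did not pass.

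No probe set passed in any of the 8 comparisons, with or without the block, among ecto-nucleotide hydrolysis and nucleotide release (20 of 22 genes measured, 26 probe sets), nucleoside transport (6 of 7 genes, 8 probe sets), P2 nucleotide receptors (13 of 16 genes, 15 probe sets) and the DPP4 family with related peptidases (7 of 10 genes, 8 probe sets). Adenosine receptor signalling (28 of 32 genes, 73 probe sets) held 0 without the block. At an unadjusted p under 0.05 by limma without the block, each list's counts ran from 0 to the highest given here. For M5 against control (16.4% of all probe sets) it was 3 of 26 for ecto-nucleotide hydrolysis, 8 of 31 for purine salvage and 11 of 73 for receptor signalling. P2 receptors had 5 of 15 for M5 against M1 (13.4%), and nucleoside transport 1 of 8 for M5 against M4 (13.3%). The DPP4 family had 3 of 8 for M4 against control (6.27%) and for M5 against M4 (13.3%). It also had 2 of 8 for M4 against M1 (2.80%). With the block these DPP4 family counts were 1, 0 and 2. Several counts were above the share of all probe sets, but the lists are short and nothing is read from them. The median of the P2 receptors was 0.182 in M5 against control and -0.014 with the block, and 3 of their 15 probe sets had a mean above the median of all probe sets. For nucleoside transport the medians were 0.161 and 0.041, with 3 of 8 probe sets above it.

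**Figure D5:**
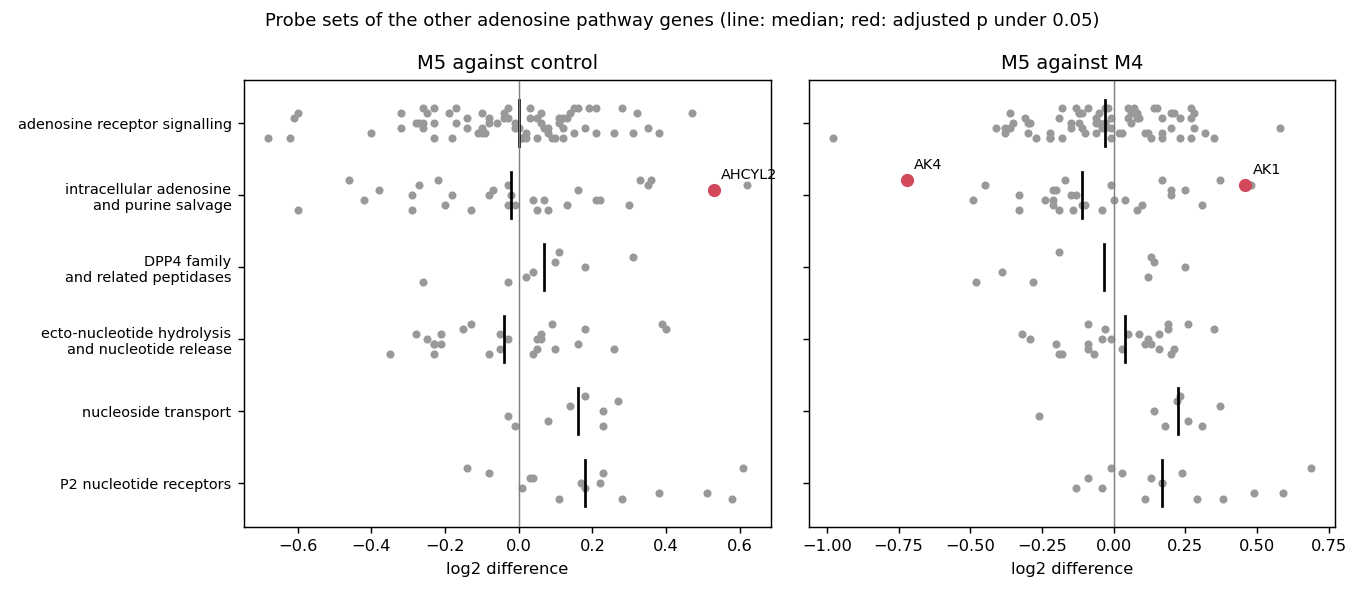
Log2 differences (horizontal axes) of the 161 probe sets of the other adenosine pathway genes, by list, for M5 against control and M5 against M4 in the fit without a block, with a line for each list's median. AHCYL2 at 0.53, AK1 at 0.46 and AK4 at -0.72, in red, are the probe sets past an adjusted p of 0.05.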

How the data were processed

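The authors deposited log2 signals, made with RMA per the submitters' processing notes. No source used here gives its version or settings, and scanned images were not used here. Genes were named from the platform annotation: 19064 of the tested probe sets name 1 gene, 1043 several and 2108 none. Chromosome order and promoter windows came from RefSeq (GRCh38.p14), where 11954 of 11963 genes matched by identifier.

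Tests left out the 62 Affymetrix control probe sets, whose signals were clustered (Ward) to give the 4 array sets. The 5 group means were fitted over all 13 arrays with limma (3.58.1, R 4.3.3; lmFit and eBayes), with control as the mean of its 2 kinds. A probe set passed when its p, adjusted by Benjamini-Hochberg across all 22215, was under 0.05. No filter on dim probe sets was used. Precision is limited by the number of arrays. The code was tested on simulated data. The members and the pathway lists were chosen with earlier results of these data known. All member probe sets are given. Pathway genes are named where they passed, with up to 4 per comparison for the block. Likeness is by Pearson's r. Alternatives were a block of 4 or 3 array sets or of replicate numbers, median centring, quantile normalization, 1 kind of control, only the groups compared, a trended robust prior, leaving out dim probe sets, 1 probe set a gene, an adjusted p under 0.01, and leaving out each array. The fit of 1 probe set a gene with the block was added after seeing the data.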

Additional observations from a re-analysis of the deposited data

Results flagged for a closer look

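AK4 and AK1 were set apart because their differences from control were unlike in M5 and M4. The direct comparison was limma's M5 against M4. The list that holds both genes was chosen with earlier results of these data known, so it is no independent test. On the log2 scale M5 minus M4 was -0.72 for AK4, which was at -0.46 in M5 and 0.25 in M4 against control. It was 0.46 for AK1, at 0.35 in M5 and -0.11 in M4. With the array sets as a block neither passed (limma adjusted p = 0.0733 for AK4 and 0.268 for AK1), and neither passed with the replicate block or with only the groups compared. Among the 13 probe sets of NT5E and the other members, 0 had a control array far from the other 3 by Dixon's criterion.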

How the results depend on the processing

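Over the blocks, centring, quantile normalization and either kind of control alone, the log2 difference of NT5E kept its sign and ranged from -0.82 to -0.49 for the mean of the lines, -0.44 to -0.22 for M1, -1.22 to -0.85 for M4, -0.81 to -0.39 for M5, -0.80 to -0.63 for M4 against M1, -0.39 to -0.15 for M5 against M1, 0.39 to 0.63 for M5 against M4 and -0.09 to -0.08 for luciferase. Only M5 with the block of 4 array sets, at -0.39 in place of -0.77, moved by more than the SD between arrays (0.34), which is itself near the size of the differences of M1 and of M5 against M1. With the replicate block NT5E was at -0.62 for the mean of the lines, -0.24 for M1, -1.02 for M4 and -0.61 for M5. Leaving out single arrays gave -0.87 to -0.70 for the mean of the lines, -0.47 to -0.27 for M1, -1.43 to -0.94 for M4, -1.0 to -0.65 for M5, -1.04 to -0.54 for M4 against M1, -0.60 to -0.25 for M5 against M1, 0.17 to 0.67 for M5 against M4 and -0.20 to 0.04 for luciferase. One or more of the 13 probe sets were past the adjusted threshold in 8 of 200 alternative fits: NT5E in M4 at -1.12 with the block of 3 spike-in sets (0.243% of all probe sets), ADA 204639_at in M5 at 0.38 without dim probe sets (2.98%), NT5E without M4 replicate 1, and, without M5 replicate 1, NT5E in 3 comparisons, ADA in M5 against control (0.41) and against M1 (0.37), and DPP4 203716_s_at in M5 against control (0.56), M1 (0.65) and M4 (0.64), beside 22.3%, 16.9% and 16.4% of all probe sets.

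The count of pathway probe sets for M5 against control was 1, and it was 3 with quantile normalization and 0 with the block of 3 spike-in sets, the replicate block, either kind of control alone, only the groups compared, the trended robust prior, dim probe sets left out, an adjusted p under 0.01, or 1 probe set a gene with the block of 4 sets. For M5 against M1 it was 0, and 2 with the block of 4 sets. For M5 against M4 it was 2, then 0 with the replicate block, only the groups compared or an adjusted p under 0.01, 1 with 1 probe set a gene and the block of 4 sets, and 3 with the block of 4 sets. With that block 0 of the 1 probe set called in M5 against control and 0 of the 2 called in M5 against M4 remained. In 81 of 96 alternatives the count was within 1.5 times that of the fit without a block, which says nothing of which probe sets passed. Leaving out single arrays gave 0 to 37 for M5 against control, 0 to 26 for M5 against M1, 0 to 24 for M5 against M4, 0 to 1 for the mean of the lines and 0 to 0 for the other comparisons; the highest counts were without M5 replicate 1. Whether the replicate numbers pair the arrays was not settled. Deviations of same-numbered arrays correlated between -0.52 and 0.54 (median -0.07), and those of differently numbered arrays between -0.54 and 0.52 (median 0.05). Among arrays of other groups, 8 of 13 arrays were closest to one of their own number. The number to be met without any pairing was not worked out.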
